A study of Homo sapiens with 12 samples.

Results

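The ABC drug efflux transporters are membrane pumps of the ATP-binding cassette family. The 9 genes described here, ABCB1, ABCC1, ABCC2, ABCC3, ABCC4, ABCC5, ABCC6, ABCC10 and ABCG2, were chosen by symbol, and all were found by Ensembl identifier among the 60660 gene identifiers of the count table. RNA was sequenced from cells labelled HS578T, an established triple-negative breast cancer line of mesenchymal character, after 48 h in doxorubicin, an anthracycline that traps DNA topoisomerase, or in its vehicle DMSO. There were 4 groups of 3 libraries. Cells labelled as having lost 1 copy of the short arm of chromosome 17 (17p) received 1 µM doxorubicin (deleted DOX) or DMSO (deleted DMSO). Cells labelled wild type, whose titles name Cas9, received 170 nM doxorubicin (intact DOX) or DMSO (intact DMSO). The labels do not say whether the deleted cells were 1 clone or whether the libraries of a group were grown separately, so the spread behind the p-values may be technical. Dose and genotype label change together in treated cells and cannot be told apart there.

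ABC pumps use ATP to move substrates out of the cell, and several lower the amount of anthracycline that stays inside tumour cells. P-glycoprotein, encoded by ABCB1, exports unmodified hydrophobic drugs. The breast cancer resistance protein, encoded by ABCG2, also exports unmodified drugs, though its substrates are not limited to them. The multidrug resistance proteins, encoded by the ABCC genes, mostly export organic anions, among them conjugates with glutathione, glucuronate or sulphate. In breast cancer cells, raised efflux through such pumps is a textbook route to drug resistance.

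Library totals ran from 66150539 to 99142099 counts. Of the 399 tested genes that start before 23 Mb on chromosome 17, the median log2 fold change of deleted DMSO over intact DMSO was -0.125, against 0.0414 for the other 21404 genes. POLR2A, a 17p gene, had 483 to 780.0 CPM in the deleted DMSO libraries and 432 to 525 CPM in the intact DMSO libraries, so its RNA was not lower under the deletion label, and "deleted" and "intact" name libraries as labelled throughout. Chromosome-specific transcripts did not match the karyotype recorded for the line in 12 of 12 libraries. Of 9 mesenchymal markers 8 exceeded 10 CPM in every library, while COL1A2 reached at most 1.79 CPM. Of the 8 epithelial markers, CDH1 and EPCAM reached at most 0.441 and 0.315 CPM. The keratins KRT8 and KRT18 of the same list were well expressed, at 251 to 371 CPM and 131 to 248 CPM. Blood cell markers summed to between 0.717 and 2.48 CPM. Mitochondrial genes took 6.90% of the counts in deleted DMSO replicate 2 and 5.54% in intact DOX replicate 1, against 2.61 to 3.57% in the other 10 libraries.

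Expression of the 9 genes differed widely in these cells. Levels between genes are given as CPM, counts per 1000000 scaled by trimmed mean of M values (TMM), per kb of the gene's exons. On this scale ABCC1 (MRP1, an exporter of glutathione conjugates and of anthracyclines) led in all groups, with 17.9 ± 0.681 in deleted DOX, 16.6 ± 2.37 in deleted DMSO, 22.5 ± 1.86 in intact DOX and 24.6 ± 1.07 in intact DMSO libraries (SD, n = 3 each). It made up 52.4 to 61.5% of the summed level of the 9 genes. ABCC4 and ABCC5, which export cyclic nucleotides and nucleotide analogues, came next, with group means of 3.76 to 6.35 CPM per kb. ABCC5 stood above ABCC4 in deleted DOX libraries and below it in both DMSO groups, and the libraries of the pair overlapped in intact DOX. With the longest transcript as the length, ABCC5 stood above ABCC4 in all 4 groups.

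ABCC10 (MRP7, a taxane exporter) followed with group means of 2.05 to 2.72 CPM per kb. ABCG2 averaged 0.915 CPM per kb in deleted DOX and 0.878 in deleted DMSO, against 2.48 in intact DOX and 3.01 in intact DMSO, where it stood above ABCC10; with the longest transcript as the length it stood below ABCC10 in that group. ABCC2 and ABCC3, the MRP2 and MRP3 exporters best known from liver, lay between 0.302 and 0.811 CPM per kb, and their libraries overlapped in both deleted groups. ABCC6, a liver transporter needed for ATP release and mutated in pseudoxanthoma elasticum, lay at 0.0303 to 0.0479 CPM per kb. The 9 levels summed to 32.0 ± 0.989 CPM per kb in deleted DOX, 31.6 ± 3.27 in deleted DMSO, 37.2 ± 2.33 in intact DOX and 40.0 ± 1.38 in intact DMSO libraries (SD, n = 3 each). Without ABCC1 the sums were 14.1, 15.0, 14.7 and 15.4 CPM per kb in the same groups, so most of the net gap lay in ABCC1. Other genes differed in both directions, which largely cancelled in these sums. In DMSO, ABCG2 had 0.878 CPM per kb in deleted and 3.01 in intact libraries, and ABCC10, ABCC2 and ABCC3 means were lower as well. ABCC4 had 6.35 and 4.51, and ABCC5 5.03 and 3.76.

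**Figure D1:**
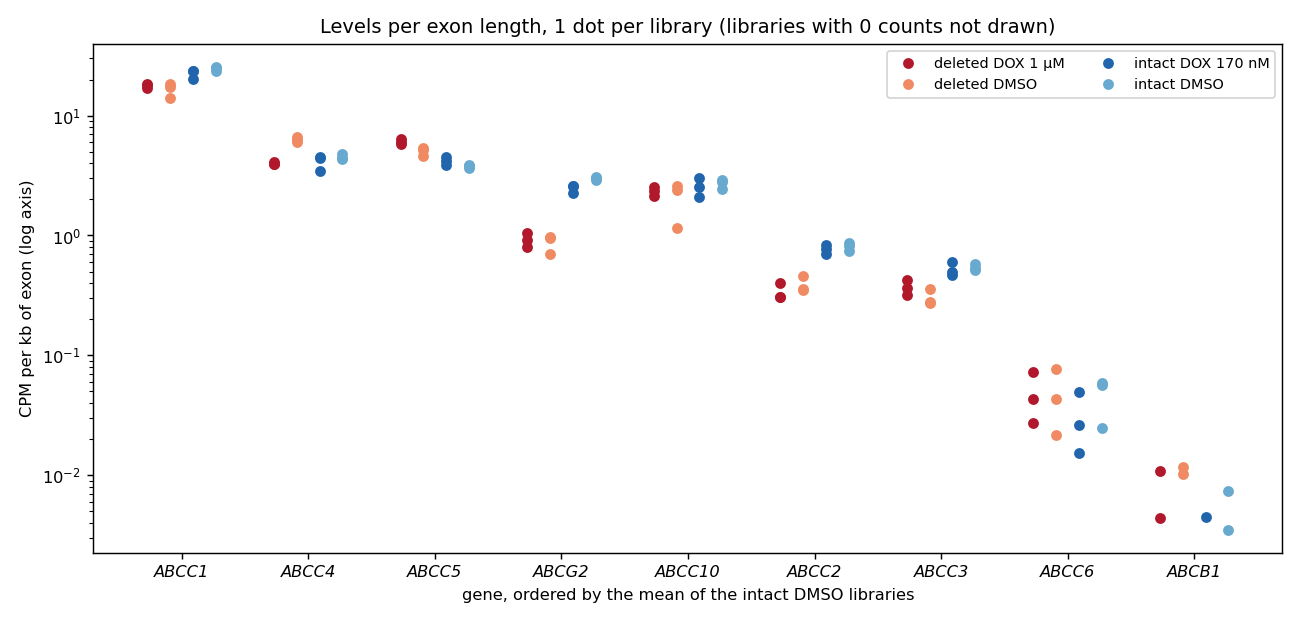
CPM per kb of exon on a log axis for each of the 9 genes, with 1 dot per library coloured by group and libraries at 0 counts left out. ABCC1 stands highest in every group and ABCB1 lowest, and the deleted libraries of ABCG2, ABCC2 and ABCC3 lie below the intact ones.

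ABCB1 (ENSG00000085563, chromosome 7, 87503633 to 87713323, minus strand, hg38) was almost silent, with 24 counts over the 12 libraries. The counts were 2, 6 and 0 in deleted DOX, 4, 5 and 0 in deleted DMSO, 2, 0 and 0 in intact DOX, and 3, 0 and 2 in intact DMSO libraries. It was at 0 in 5 of 12 libraries, where a floor of 3 counts allows up to 0.0303 to 0.0454 CPM over the 12 libraries, counting error only. ABCB1 failed the filter on low counts and was not tested, so 8 of the 9 genes were tested. Its locus overlaps RUNDC3B on the other strand, and the strand setting of the counting is not given in the sources used here.

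In DMSO, cells labelled deleted had lower RNA of ABCG2, ABCC2, ABCC3 and ABCC1 and higher RNA of ABCC4 and ABCC5 than cells labelled intact. ABCG2 differed most, 3.43-fold lower. With edgeR's quasi-likelihood test and Benjamini-Hochberg adjustment over 21803 genes, 6 of the 8 tested members passed an adjusted p of 0.05, beside 34.9% of all genes tested. Of these, 4 were lower, beside 16.2% of all genes, and 2 were higher, beside 18.8%. Libraries of the 2 groups did not overlap for the same 6 members, as for 49.5% of all genes. The median log2 fold change of the 8 members was -0.489, against 0.0379 over all genes. In bulk RNA, fewer cells that express a gene and less RNA per cell cannot be told apart.

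ABCG2 (ENSG00000118777, chromosome 4, 88090264 to 88231322, minus strand) had 3.52, 4.94 and 4.82 CPM in the deleted DMSO libraries, against 15.2, 14.8 and 15.6 CPM in the intact DMSO libraries. Every deleted library was far below every intact one. Its log2 fold change was -1.78 (SE 0.147, edgeR adjusted p = 1.02e-06). ABCC2 (ENSG00000023839, chromosome 10, 99782640 to 99852594, plus strand), which exports bilirubin glucuronides in liver, had 3.60, 2.78 and 2.74 CPM in deleted DMSO libraries and 5.81, 6.44 and 6.84 CPM in intact DMSO libraries. The groups did not overlap, and the log2 fold change was -1.07 (SE 0.157, edgeR adjusted p = 0.000152).

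ABCC3 (ENSG00000108846, chromosome 17, 50634777 to 50692252, plus strand), on the long arm and so outside the labelled deletion, had 2.66, 2.63 and 3.42 CPM in deleted DMSO libraries, against 5.15, 5.50 and 4.98 CPM in intact DMSO libraries. No deleted library reached an intact one, and the log2 fold change was -0.84 (SE 0.160, edgeR adjusted p = 0.00115). ABCC1 (ENSG00000103222, chromosome 16, 15949577 to 16143074, plus strand) had 140.1, 106 and 131 CPM in deleted DMSO libraries and 190.1, 192 and 177 CPM in intact DMSO libraries. The lowest value came from replicate 2, the library with 6.90% mitochondrial counts, and the groups did not overlap. The log2 fold change was -0.57 (SE 0.106, edgeR adjusted p = 0.000931), and -0.48 without that replicate (adjusted p = 0.00099).

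ABCC4 (ENSG00000125257, chromosome 13, 95019829 to 95301475, minus strand) had 55.5, 57.0 and 51.9 CPM in deleted DMSO libraries, against 41.4, 37.3 and 38.1 CPM in intact DMSO libraries. All deleted libraries were above all intact ones, and the log2 fold change was 0.49 (SE 0.106, edgeR adjusted p = 0.00266). ABCC5 (ENSG00000114770, chromosome 3, 183919934 to 184018015, minus strand) had 61.0, 52.6 and 58.9 CPM in deleted DMSO libraries and 44.1, 43.5 and 41.5 CPM in intact DMSO libraries. The groups did not overlap either, and the log2 fold change was 0.42 (SE 0.0894, edgeR adjusted p = 0.0025). The antisense gene ABCC5-AS1 had 4 counts in all 12 libraries.

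ABCC10 (ENSG00000124574, chromosome 6, 43427366 to 43450430, plus strand) had 19.5, 9.35 and 20.9 CPM in deleted DMSO libraries, against 22.8, 23.5 and 19.8 CPM in intact DMSO libraries. Only replicate 2 of the deleted group, the library of highest mitochondrial share, stood apart, and the other libraries overlapped. Gene deviations of that replicate from its group mean also fell with transcript GC content. Their Spearman correlation was -0.50, the largest in size of the 12 libraries, but other libraries came near it. It was 0.43 and 0.35 in deleted DMSO replicates 3 and 1. In intact DOX replicates 2 and 1 it was 0.47 and -0.44. Deviations from a mean of 3 libraries are not independent within a group. The ABCC10 log2 fold change of -0.41 (95% interval -0.904 to 0.088, edgeR adjusted p = 0.193) did not pass, and it was -0.14 without that replicate. The part of mitochondrial share or GC trend in this fold change was not tested. With no filter on low counts it passed, at -0.46 (adjusted p = 0.00952), in 1 of 23 alternatives. Its locus overlaps DLK2 on the other strand. ABCC6 (ENSG00000091262, chromosome 16, 16148928 to 16223522, minus strand) had 9 to 53 counts a library, and its log2 fold change of 0.014 (95% interval -1.19 to 1.22) left a wide range. Its near-identical pseudogenes ABCC6P1 and ABCC6P2 held 28 and 163 counts in all, so its count is uncertain.

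**Figure D2:**
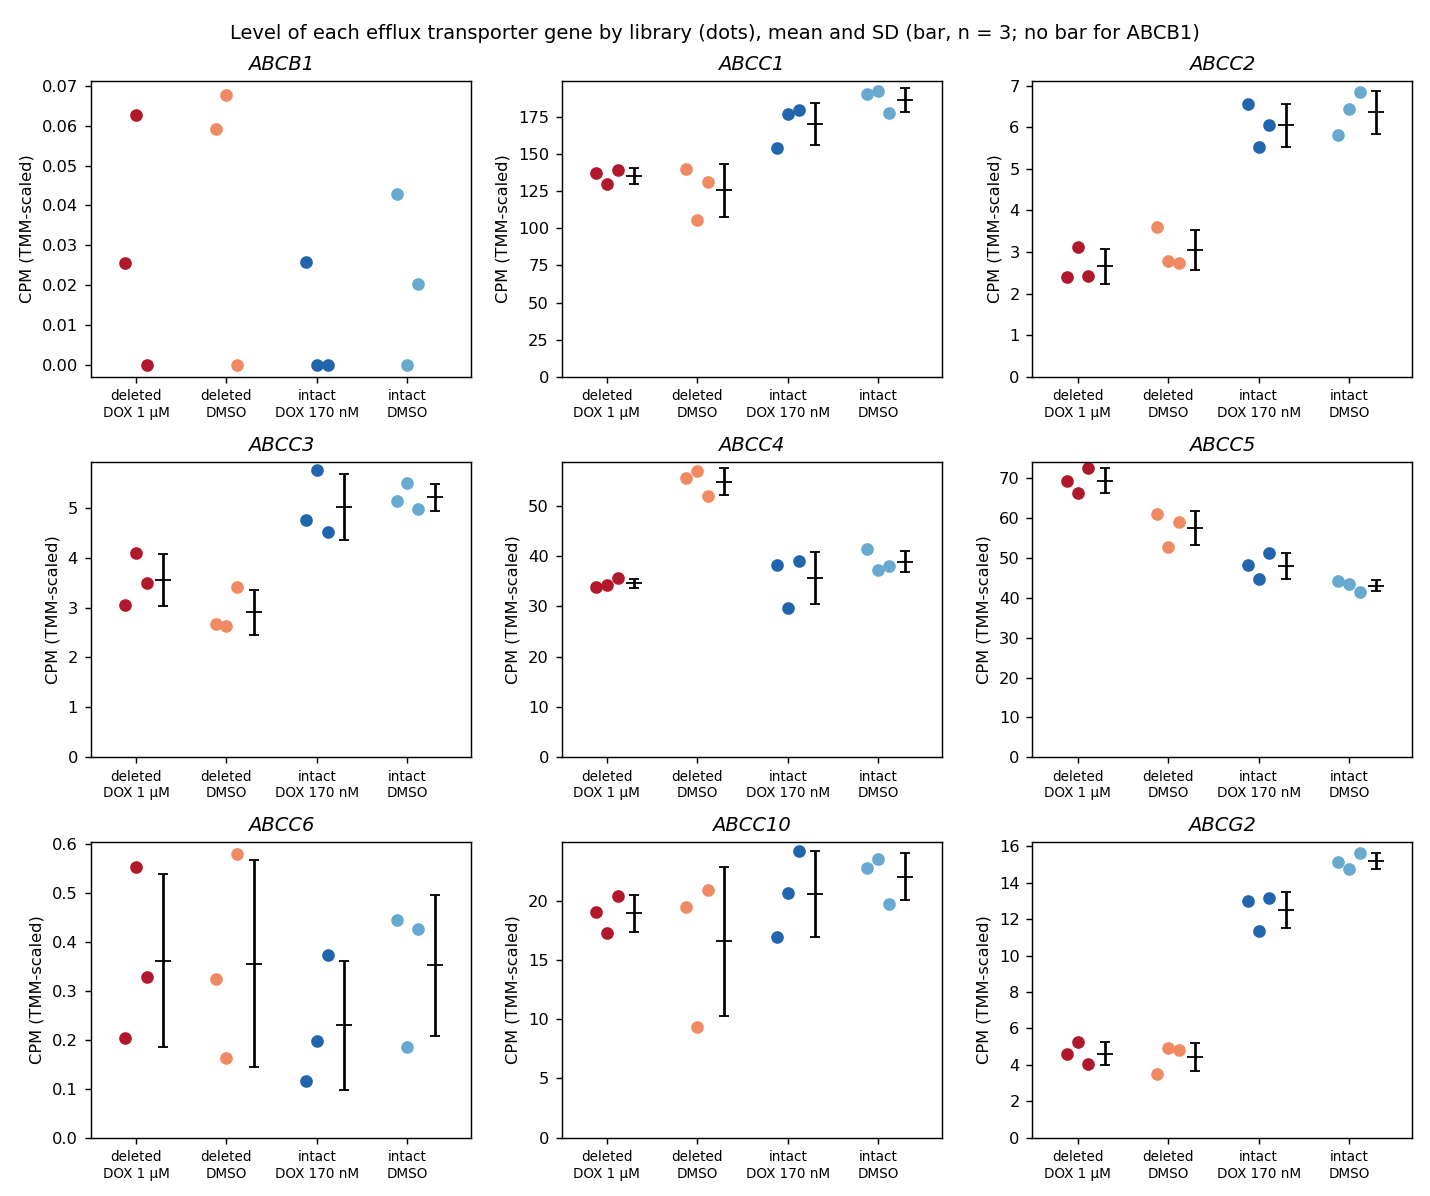
TMM-scaled CPM of the 9 genes, 1 panel per gene, with 1 dot per library in the 4 groups. A bar gives the mean and SD (n = 3) in every panel but that of ABCB1. The deleted libraries of ABCG2 lie between 3.52 and 5.25 CPM, below all intact libraries, and ABCC4 is highest in deleted DMSO at 51.9 to 57.0 CPM.

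The sequences before the starts of the pair with the lowest fold changes, ABCG2 and ABCC2, and of the pair that was higher, ABCC4 and ABCC5, are shown for their letters alone. They are the 250 bases upstream of a RefSeq start on GRCh38.p14, read 5′ to 3′ on the gene's strand, and 7 of the 9 members matched the RefSeq promoter table; ABCC1 and ABCC3 are named only. Capitals mark matches on either strand to the antioxidant response element (letters TGACNNNGC), the core of the xenobiotic response element (letters GCGTG), the core of the hypoxia response element (letters ACGTG) or the GC box (letters GGGCGG). No printed match overlaps another.
ABCG2, chr4:88159291-88159540, minus strand: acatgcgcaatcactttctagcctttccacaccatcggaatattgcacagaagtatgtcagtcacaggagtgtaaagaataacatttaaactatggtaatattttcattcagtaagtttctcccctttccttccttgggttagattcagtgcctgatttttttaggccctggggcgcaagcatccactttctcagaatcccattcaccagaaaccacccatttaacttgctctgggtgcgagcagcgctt
ABCC2, chr10:99782390-99782639, plus strand: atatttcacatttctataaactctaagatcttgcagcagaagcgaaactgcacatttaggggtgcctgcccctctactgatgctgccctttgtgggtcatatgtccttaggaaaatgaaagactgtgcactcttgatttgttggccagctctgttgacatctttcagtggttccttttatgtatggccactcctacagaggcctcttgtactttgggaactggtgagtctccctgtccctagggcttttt
ABCC4, chr13:95301452-95301701, minus strand: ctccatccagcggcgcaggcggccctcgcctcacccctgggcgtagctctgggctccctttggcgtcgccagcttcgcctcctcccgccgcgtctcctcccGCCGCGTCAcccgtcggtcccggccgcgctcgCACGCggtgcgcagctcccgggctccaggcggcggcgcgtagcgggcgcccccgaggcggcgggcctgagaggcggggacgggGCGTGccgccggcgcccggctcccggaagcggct
ABCC5, chr3:184017885-184018134, minus strand: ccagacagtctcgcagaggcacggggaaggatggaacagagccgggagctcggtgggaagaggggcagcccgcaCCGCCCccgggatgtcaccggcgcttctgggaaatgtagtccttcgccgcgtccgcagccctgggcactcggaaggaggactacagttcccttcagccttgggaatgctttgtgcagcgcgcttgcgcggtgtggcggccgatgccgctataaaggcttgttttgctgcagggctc
The ABCG2 and ABCC2 windows were 43.6 and 45.6% G or C and held none of these letters. The ABCC4 window was 80.4% G or C, with 1 antioxidant response element and 2 xenobiotic response element cores. The ABCC5 window was 64.8% G or C, with 1 GC box. Over 35116 promoters of the same length the median was 58.0%, and the antioxidant element was held by 10.9%, the xenobiotic core by 32.2%, the hypoxia core by 18.5% and the GC box by 42.6%. The ABCG2 window is 1 of 5 RefSeq starts, and the choice sets its composition and its matches. Of the others 3 were 71.2, 72.4 and 73.6% G or C, each with 2 xenobiotic cores, and the fourth was 40.0%. The 71.2 and 72.4% windows also held 2 hypoxia cores and 2 GC boxes each. The 71.2% window had as many GENCODE transcript starts within 50 bases, 1, as the printed one. With that window, ABCG2 would stand above ABCC5 in G or C content, so a split by composition between the lower and the higher pair depends on the start taken. A match is a description of letters and not of a bound site.

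In treated cells the ABCG2, ABCC2, ABCC3, ABCC1 and ABCC5 differences between the labels kept their direction, and ABCC4 levels overlapped. Dose differed as well, 1 µM against 170 nM. Of the 8 tested members 5 passed, beside 47.8% of all genes, with 4 lower (21.9% of all genes) and 1 higher (25.9%). The libraries of 5 members did not overlap, as for 57.1% of all genes. The median log2 fold change of the members was -0.227, against 0.016 over all genes; with each library's GC trend and level removed these were -0.516 and -0.163. The 4 members lower in DMSO were lower again, and 1 of the 2 higher ones, ABCC5, was higher again. The DMSO comparison shares no library with this one, but it uses the same cell populations and the same fit. Over all genes, 2378 of the 3526 lower in DMSO were lower again, and 2696 of the 4092 higher were higher again. These were 10.9 and 12.4% of all genes tested.

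ABCG2 had 4.58, 5.25 and 4.02 CPM in deleted DOX libraries, against 13.0, 11.3 and 13.2 CPM in intact DOX libraries. The groups lay far apart, with a log2 fold change of -1.44 (SE 0.145, edgeR adjusted p = 2.45e-06), which is 2.71-fold lower. ABCC2 had 2.41, 3.13 and 2.43 CPM in deleted DOX libraries and 6.56, 5.51 and 6.06 CPM in intact DOX libraries. The groups did not overlap, and it was 2.28-fold lower in deleted cells, with a log2 fold change of -1.19 (SE 0.157, edgeR adjusted p = 3e-05).

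ABCC5 had 69.2, 66.4 and 72.6 CPM in deleted DOX libraries, against 48.1, 44.7 and 51.3 CPM in intact DOX libraries. All deleted libraries were higher, with a log2 fold change of 0.53 (SE 0.0893, edgeR adjusted p = 0.00024). ABCC4 had 33.9, 34.2 and 35.7 CPM in deleted DOX libraries and 38.2, 29.7 and 39.1 CPM in intact DOX libraries. The 3 deleted libraries lay within the range of the intact ones, and the log2 fold change was -0.044 (95% interval -0.273 to 0.184, edgeR adjusted p = 0.758).

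ABCC1 had 137, 129.5 and 139 CPM in deleted DOX libraries, against 154, 177 and 179.7 CPM in intact DOX libraries. The groups did not overlap, but the log2 fold change of -0.33 (SE 0.106, edgeR adjusted p = 0.0187) missed the threshold without intact DOX replicate 3, at -0.29 (adjusted p = 0.0643), and with library totals as the scaling, at -0.25 (adjusted p = 0.113). ABCC3 had 3.06, 4.09 and 3.50 CPM in deleted DOX libraries and 4.76, 5.76 and 4.51 CPM in intact DOX libraries. The groups did not overlap, and the log2 fold change was -0.50 (SE 0.158, edgeR adjusted p = 0.0189). It missed the threshold at -0.45 without deleted DOX replicate 1 (adjusted p = 0.0575), at -0.42 without intact DOX replicate 2 (adjusted p = 0.0539) and at -0.41 with library totals (adjusted p = 0.0612).

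ABCC10 had 19.1, 17.3 and 20.4 CPM in deleted DOX libraries, against 16.9, 20.7 and 24.2 CPM in intact DOX libraries, and the groups overlapped. Its log2 fold change of -0.12 (95% interval -0.615 to 0.373, edgeR adjusted p = 0.693) did not pass. It did pass at -0.29 without the 2 libraries of highest mitochondrial share (adjusted p = 0.0344), and at -0.44 when each library's trend with GC content and its level were removed (adjusted p = 0.0344). ABCC6 ran from 0.205 to 0.554 CPM in deleted DOX libraries and from 0.117 to 0.374 CPM in intact DOX libraries, with a log2 fold change of 0.65 (95% interval -0.568 to 1.86).

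**Figure D3:**
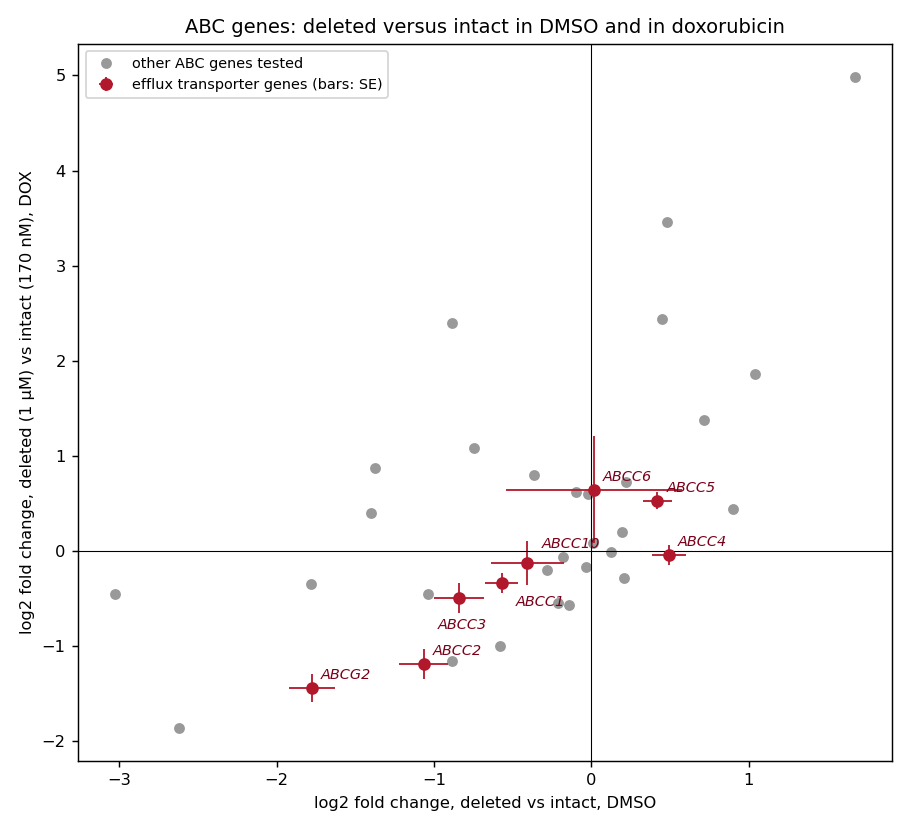
Log2 fold change of deleted over intact in DMSO (x axis) and in doxorubicin (y axis) for 8 efflux genes (red, bars SE) and 29 other ABC genes (grey). ABCG2, ABCC2, ABCC3 and ABCC1 lie below 0 on both axes, and ABCC4 lies at 0.49 in DMSO and -0.044 in doxorubicin.

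With 1 µM doxorubicin, ABCC4 RNA fell and ABCC5 RNA rose modestly in cells labelled deleted. These were 2 of the 8 tested members, beside 30.7% of all genes tested; 1 was lower, beside 13.1%, and 1 higher, beside 17.5%. The libraries of the same 2 members did not overlap, as for 45.3% of all genes. ABCC4 had 33.9, 34.2 and 35.7 CPM with doxorubicin, against 55.5, 57.0 and 51.9 CPM with DMSO. All treated libraries were below all vehicle libraries, and the log2 fold change was -0.66 (SE 0.106, edgeR adjusted p = 0.00031), which is 1.58-fold lower. ABCC5 had 69.2, 66.4 and 72.6 CPM with doxorubicin and 61.0, 52.6 and 58.9 CPM with DMSO. The groups did not overlap, and the log2 fold change was 0.27 (SE 0.0891, edgeR adjusted p = 0.0333). The ABCC5 call passed in 10 of 23 alternatives. Among fits that left out 1 library it held only without deleted DMSO replicate 1, intact DOX replicate 2 or intact DOX replicate 3; it was 0.20 without deleted DMSO replicate 2 (adjusted p = 0.124). It was 0.12 when each library's GC trend and level were removed (adjusted p = 0.306).

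The other members did not pass in this contrast. ABCG2 gave a log2 fold change of 0.059 (95% interval -0.254 to 0.373) and ABCC1 one of 0.11 (-0.121 to 0.334). For ABCC3 it was 0.29 (-0.058 to 0.633), for ABCC2 -0.19 (-0.535 to 0.148) and for ABCC10 0.19 (-0.304 to 0.687). All these intervals hold 0, and each but that of ABCC2 also holds the value of ABCC5. ABCC6 spanned -1.17 to 1.22.

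At 170 nM in cells labelled intact, none of the 8 tested members passed with edgeR, beside 0.0596% of all genes (0.0275% higher and 0.0321% lower). Without adjustment, 0 members had an edgeR p under 0.05, beside 2504 of all 21803 genes. DESeq2 and limma-voom also called 0 members, beside 467 and 25 of all 21803 genes. ABCG2 libraries with doxorubicin, at 13.0, 11.3 and 13.2 CPM, lay below all DMSO libraries, at 15.2, 14.8 and 15.6 CPM. ABCC5 libraries with doxorubicin, at 48.1, 44.7 and 51.3 CPM, lay above all DMSO libraries, at 44.1, 43.5 and 41.5 CPM. Such a lack of overlap was seen for 2 members and for 19.4% of all genes. The log2 fold change was -0.28 for ABCG2 (95% interval -0.583 to 0.021, edgeR adjusted p = 0.47) and 0.16 for ABCC5 (95% interval -0.033 to 0.351, edgeR adjusted p = 0.521). ABCC4 gave -0.13 (-0.354 to 0.103) and ABCC1 -0.13 (-0.359 to 0.095). ABCC2, ABCC3 and ABCC10 lay between -0.10 and -0.057. ABCC6 had the lowest estimate, -0.61, with the widest interval (-1.83 to 0.619).

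The 2 doxorubicin effects, at unequal doses, differed for ABCC4 alone among the 8 tested members, beside 17.0% of all genes. It was lower, beside 6.74% of all genes, and 0 members were higher, beside 10.3%. The effect on ABCC4 in deleted cells less that in intact cells was -0.54 on the log2 scale (SE 0.15, edgeR adjusted p = 0.025). The difference contains the 2 DMSO groups, in which ABCC4 was higher in deleted cells. It passed in 13 of 22 alternatives and missed the threshold without intact DMSO replicate 2 or 3, any of the 3 deleted DOX libraries, or intact DOX replicate 1 or 3, where it ran from -0.55 to -0.47 with adjusted p-values up to 0.0849. It also missed with library totals, at -0.42 (adjusted p = 0.0601), and with no filter, at -0.51 (adjusted p = 0.056). ABCG2, at 0.34 (95% interval -0.095 to 0.775), and ABCC3, at 0.34 (-0.139 to 0.828), did not pass. ABCC1 gave 0.24 (-0.083 to 0.560) and ABCC5 0.11 (-0.160 to 0.384).

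**Figure D4:**
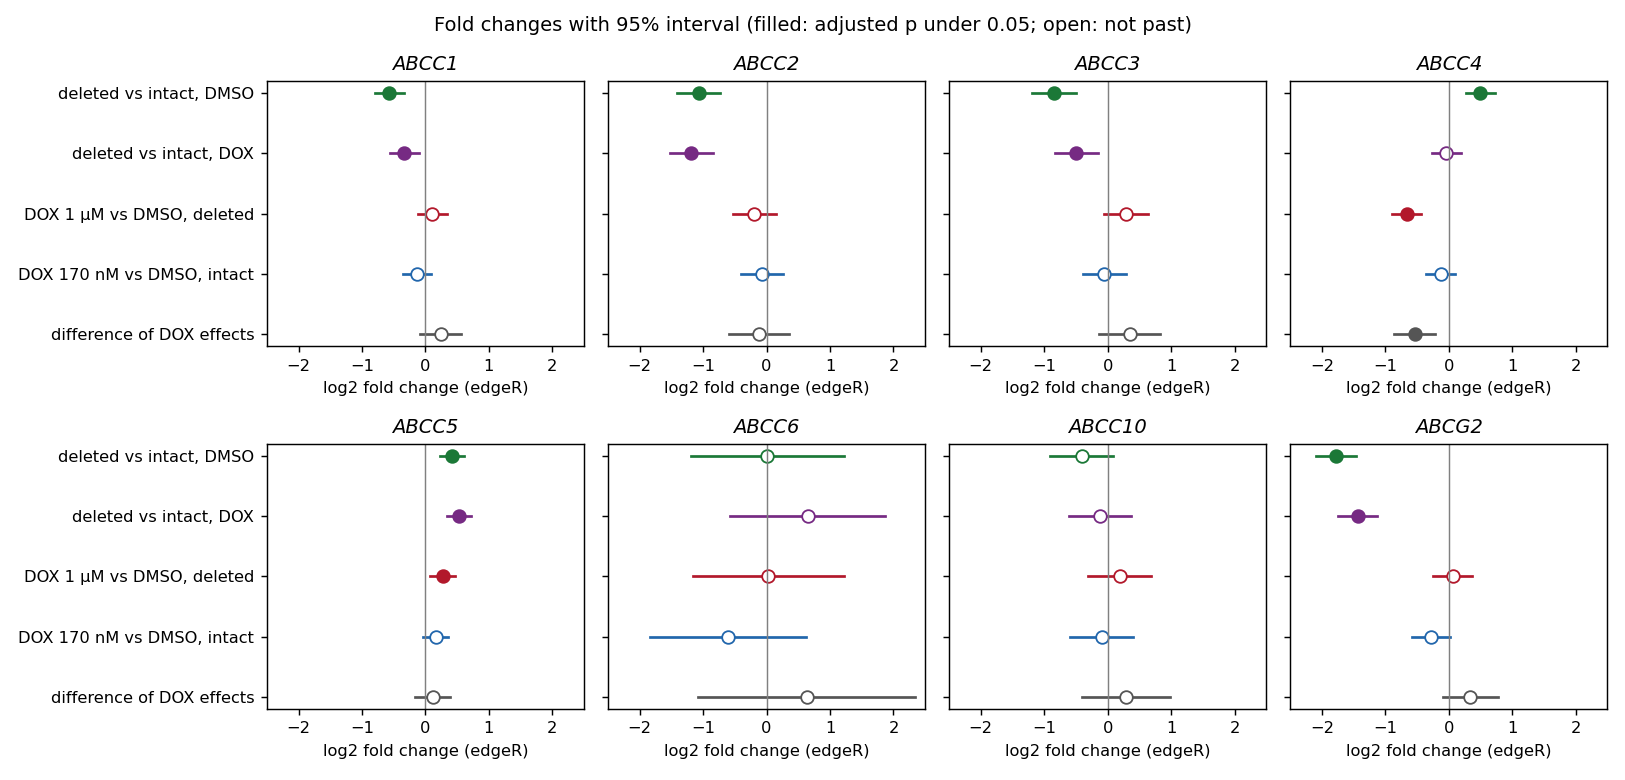
Log2 fold changes of the 8 tested genes in the 5 comparisons, with 95% intervals; filled points passed an adjusted p of 0.05. ABCC4 is above 0 between the labels in DMSO, at 0.49, and below 0 for 1 µM doxorubicin, at -0.66, and the intervals of ABCC6 are the widest.

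The other ABC genes, which serve among others lipid transport, peptide transport, peroxisomes and translation, were mostly higher with 1 µM doxorubicin where they passed. Of 39 such genes 29 were tested, and 15 were higher and 2 lower with 1 µM, beside 17.5 and 13.1% of all genes, with a median log2 fold change of 0.692 against -0.018 over all genes. When each library's GC trend and level were removed, 14 were higher and 6 lower and the median was 0.355. Of all 21803 genes 3580 were then higher and 5446 lower, with a median of -0.137. In DMSO 3 were higher and 9 lower in deleted cells (median -0.143), beside 18.8 and 16.2% of all genes. In doxorubicin 12 were higher and 5 lower (median 0.199), beside 25.9 and 21.9% of all genes. With the GC trend and level removed 11 were higher and 10 lower (median 0.102), beside 4917 and 7367 of all 21803 genes (median -0.163). With 170 nM 0 passed with edgeR, DESeq2 or limma-voom, beside 13, 467 and 25 of all genes. An unadjusted p under 0.05 with edgeR was held by 2, beside 2504 of all 21803 genes. Under either GC correction 1 was higher, beside 513 of all genes with the level removed and 232 with the TMM level kept. ABCA12, a keratinocyte lipid transporter, averaged 16.1 ± 1.16 CPM in deleted DOX and 1.72 ± 0.179 CPM in deleted DMSO libraries (SD, n = 3 each), a log2 fold change of 3.23 (edgeR adjusted p = 1.07e-07). ABCG4, a sterol transporter, averaged 6.20 ± 0.634 CPM and 0.886 ± 0.125 CPM in the same groups, a log2 fold change of 2.80 (edgeR adjusted p = 1.54e-06). TAP1, which carries peptides for class I presentation, averaged 88.9 ± 3.52 CPM in deleted DOX and 25.2 ± 7.55 CPM in deleted DMSO, a log2 fold change of 1.82 (edgeR adjusted p = 8e-06). In DMSO, TAP1 was already lower in deleted than in intact cells, at -1.40 (edgeR adjusted p = 8.24e-05). Between the treated groups TAP1 did not pass, at 0.40 (edgeR adjusted p = 0.0982). ABCF1, a translation factor of the family, was the most abundant gene not past, at -0.11.

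Genes that work beside the pumps were counted in the same fits, where 18.8% of all genes were higher and 16.2% lower in deleted DMSO cells, 25.9 and 21.9% in deleted DOX cells, and 17.5 and 13.1% with 1 µM. These lists hold 10 to 15 tested genes each, so their counts are a description. Of 15 tested glutathione conjugation genes 3 were higher and 5 lower in deleted DMSO cells, and 4 higher and 5 lower in deleted DOX cells. GCLM, the modifier subunit of the enzyme that starts glutathione synthesis, averaged 34.8 ± 4.66 CPM in deleted DMSO and 95.5 ± 3.39 CPM in intact DMSO libraries (SD, n = 3 each), a log2 fold change of -1.45 (edgeR adjusted p = 5e-07). It was also lower in doxorubicin, at -1.62 (edgeR adjusted p = 6.76e-08). GSTK1, a mitochondrial and peroxisomal glutathione transferase, was lower at -0.80 and -0.88 in the same comparisons. GSTP1, the most abundant gene of this list, went the other way. It averaged 573.5 ± 66.8 CPM in deleted DMSO against 425.4 ± 22.0 CPM in intact DMSO libraries. In doxorubicin it averaged 732 ± 33.2 CPM in deleted against 483.5 ± 105 CPM in intact libraries. With 1 µM, 1 gene of the list was higher and 1 lower: GSS (glutathione synthetase) was up at 0.66 (edgeR adjusted p = 0.000274) and GSTA4 down at -0.52 (edgeR adjusted p = 0.00195).

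Of 12 tested xenobiotic sensors and regulators, 1 was higher and 1 lower in deleted DMSO cells, 3 higher and 2 lower in deleted DOX cells, and 1 was higher with 1 µM. With the GC trend and level removed, 2 were higher and 6 lower in deleted DOX cells. Under that correction, 4917 of all 21803 genes were higher and 7367 lower in deleted DOX cells. The counts were 3580 and 5446 with 1 µM, and 4756 and 4158 in deleted DMSO cells. With the GC trend removed and the TMM level kept, they were 6067 and 5714 in deleted DOX cells, and 4442 and 3974 with 1 µM. NFE2L2, the NRF2 factor that drives antioxidant genes, was lower in deleted DOX cells, at 155 ± 3.20 CPM against 215 ± 17.9 CPM (log2 fold change -0.47, edgeR adjusted p = 0.00349). SP1, which binds GC boxes, was higher at 0.41 in DMSO and 0.42 in doxorubicin. Of 10 membrane anchoring and vesicle partners, 2 were higher and 3 lower in DMSO, 3 higher and 3 lower in doxorubicin, and 2 higher and 1 lower with 1 µM. With the GC trend and level removed they were 3 higher and 5 lower in doxorubicin and 1 higher and 4 lower with 1 µM; with the TMM level kept, 2 were higher and 3 lower with 1 µM. CAV1, the caveolae protein, averaged 250.4 ± 37.2 CPM in deleted DMSO and 638 ± 17.1 CPM in intact DMSO libraries, and rose to 595 ± 15.5 CPM with 1 µM in deleted cells. NHERF2, a scaffold for membrane transporters, was higher in deleted cells at 0.89 in DMSO and 0.90 in doxorubicin. Of 11 tested uptake carriers, 1 was higher and 2 lower in deleted DMSO cells, 5 higher and 1 lower in deleted DOX cells, and 3 higher with 1 µM. With the GC trend and level removed, 3 were higher and 3 lower in each of these 3 comparisons, and the median in deleted DOX cells was -0.0264, against 0.261 with TMM. With the TMM level kept, 4 were higher and 3 lower in deleted DOX cells and 3 higher and 2 lower with 1 µM. SLC22A5, a carnitine carrier, was higher in deleted cells at 0.75 in DMSO and 0.65 in doxorubicin. SLC29A1, a nucleoside carrier, was higher with 1 µM at 0.54 (edgeR adjusted p = 0.000346). Between the labels it was lower in deleted DMSO cells, at -0.30 (edgeR adjusted p = 0.0161), and higher in deleted DOX cells, at 0.26 (edgeR adjusted p = 0.0254). With 170 nM in intact cells 0 of the 48 tested genes of these 4 lists passed with edgeR and 0 with limma-voom. DESeq2 called 1 of the 48, CAV1, beside 467 of all 21803 genes. An unadjusted p under 0.05 with edgeR was held by 5, beside 2504 of all 21803 genes. With the GC trend and level removed 1 membrane partner was higher and 1 lower there, beside 513 and 111 of all genes.

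Mesenchymal markers differed between the same labels, with more of them lower than higher in deleted cells. Their summed level was 6620 to 7042 CPM in deleted DMSO and 9395 to 9830 CPM in intact DMSO libraries. Of the 9, 6 were lower and 1 higher, beside 16.2 and 18.8% of all genes. In treated libraries the sums were 5102 to 5231 CPM in deleted DOX and 8060 to 8221 CPM in intact DOX. There 7 were lower and 2 higher, beside 21.9 and 25.9% of all genes. The sums rest mainly on VIM, FN1, COL1A1 and SPARC, the most abundant markers, with medians of 971 to 1933 CPM over the 12 libraries. CAV1, also on this list, did not keep 1 direction. It was lower in deleted DMSO cells, at -1.35, and rose with 1 µM, at 1.25. Its difference of doxorubicin effects was 1.74 (edgeR adjusted p = 3.72e-06). The list is small, so its counts are a description. The part of these markers in the transporter differences was not tested.

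For the 3 members with the widest range of group means, likeness of pattern was measured as the root mean square difference of log2(CPM + 1) from the member, each less its own mean, over 12 libraries. Closest to ABCG2 (range 1.59) were ID2 at 0.135, UTP4 at 0.151 and MECOM at 0.156. Closest to ABCC2 (range 1.01) were FUT11 at 0.121, PKM at 0.127 and COPS7A at 0.127. Closest to ABCC5 (range 0.677) were STK35 at 0.062, ZNF551 at 0.0645 and FAM168A at 0.0661.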

How the data were processed

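Gene-level counts of 12 libraries were used as the authors deposited them, as raw counts with no normalization. Per the submitters' processing notes, the tools were bcl2fastq, STAR 2.7.9a on hg38, and featureCounts from Subread 2.0.1. The sources used here give neither the annotation release nor the strand setting. Totals were 66150539 to 99142099 counts, so 3 counts stand for 0.0303 to 0.0454 CPM; floors cover counting error only. Positions and exon lengths came from GENCODE 29, which placed 58429 of 60660 identifiers.

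In R 4.3.3, edgeR 4.0.16 applied filterByExpr and TMM and fitted 1 quasi-likelihood model of 4 groups to 21803 genes, with Benjamini-Hochberg adjustment and a threshold of 0.05. SE is the log2 fold change over the root of F, and 95% intervals use the t distribution. CPM are TMM-scaled. The fit was tested on simulated data. Chi-square per degree of freedom between libraries of a group was 7.72 to 179.5, and none counted as a duplicate.

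The members and lists were chosen with earlier results of these data known. All members are named; from each other list, up to 3 genes of lowest p past the threshold with at least 5 CPM, and the most abundant gene not past, could be named, and not all are. Genes of like pattern needed a mean of 5 CPM.

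Alternatives were RLE size factors, library totals, no filter, 1 CPM in 3 libraries, DESeq2 1.42.0, limma-voom (limma 3.58.1), a replicate block, a fit of the compared groups alone, an added 2-fold change, each library left out, the 2 libraries of highest mitochondrial share left out, and loess offsets (span 0.5) against transcript GC content, known for 98.0% of tested genes. A second form of the GC offsets, centred on each library's median so that TMM sets the level, was added after the first form's values and member calls had been seen, because the first form moved the median of all genes.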

Additional observations from a re-analysis of the deposited data

Results flagged for a closer look

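For ABCC4, the effects of doxorubicin differed between the cell populations by an interaction term: 1 µM in deleted cells less 170 nM in intact cells gave -0.54 on the log2 scale (SE 0.15, edgeR adjusted p = 0.025). It missed the threshold in 9 of 22 alternatives, which were 7 of the 12 fits that left out 1 library (-0.55 to -0.47), library totals (-0.42) and no filter (-0.51). ABCC4 fell by 0.66 in deleted cells and gave -0.13 in intact cells, where it did not pass. Doses differed with the label, so dose and genotype cannot be told apart.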

How the results depend on the processing

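Across 23 alternatives (all but the added 2-fold change) the calls of ABCG2 (-1.89 to -1.64 in DMSO and -1.58 to -1.35 in doxorubicin), ABCC2 and ABCC5 between the labels in both comparisons, of ABCC1, ABCC3 and ABCC4 in DMSO, and of ABCC4 with 1 µM (-0.701 to -0.569) kept their direction and passed. The cause of the changes below was not tested.

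The 2 GC corrections differ. The first removed each library's GC trend with its level and moved the median of all genes to -0.163 in deleted DOX over intact DOX, -0.137 with 1 µM and -0.203 in the difference of effects. With it ABCC5 with 1 µM lost its call (0.12, adjusted p = 0.306) and ABCC10 in doxorubicin passed (-0.44, adjusted p = 0.0344). With 1 µM 1 member passed, beside 9026 of all genes, and 624 genes passed with 170 nM and 6749 in the difference. The second, chosen after seeing the data, kept the TMM level: ABCC5 passed (0.23, adjusted p = 0.0229), ABCC10 did not (-0.28) and 397 genes passed with 170 nM. Of the genes called, 40.0% were higher in deleted DOX over intact DOX under the first form, against 51.5% under the second and 54.3% in edgeR with TMM; for the difference these shares were 31.6, 51.3 and 60.3%, and with 1 µM 39.7, 52.8 and 57.2%. Library totals moved the median of the difference to 0.0819, against -0.0284, with 71.3% higher, and the share higher with 170 nM to 14.6%, against 46.2%.

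Asking also for a 2-fold change left 2 members and 2651 genes in DMSO, 2 and 4926 in doxorubicin, 0 and 2921 with 1 µM, 2 genes with 170 nM, and 0 and 1984 in the difference. Library totals left 3 members in doxorubicin, beside 10323 of all genes. With 1 µM, 1 member, ABCC4, passed without a filter, with only the groups compared and without the 2 high-mitochondrial libraries. Beside it 6749, 6105 and 7912 genes passed. In the difference 0 members passed with library totals, beside 2538 genes higher and 1020 lower, and 0 members with no filter. Genes past with 170 nM, 13 in all, numbered 48 with library totals, 196 with no filter, 65 at 1 CPM, 0 with only the groups compared, 25 with limma-voom, 467 with DESeq2 and 195 without the 2 libraries. Leaving out 1 library gave 1 to 2 members with 1 µM, beside 5181 to 7523 genes. It gave 0 to 1 members in the difference, and 0 to 220 genes with 170 nM.

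Only members that did not pass changed sign. ABCC6 in DMSO gave -0.0094 with RLE, -0.037 with no filter, -0.020 with only the groups compared, -0.083 with limma-voom and -0.0091 with DESeq2. ABCC4 in doxorubicin gave 0.041 with library totals and 0.032 under the second GC form. Without the 2 high-mitochondrial libraries, 1 µM gave -0.10 for ABCC10, -0.014 for ABCC1 and -0.33 for ABCC6, 170 nM gave 0.036 for ABCC10, and the difference gave -0.14 for ABCC10 and -0.036 for ABCC6. Under the first GC form, 1 µM gave -0.048 for ABCC10, -0.11 for ABCC1 and -0.21 for ABCC6, 170 nM gave 0.027 for ABCC10 and 0.034 for ABCC3, and the difference gave -0.10 for ABCC5, -0.075 for ABCC10 and -0.071 for ABCC1. Under the second form, 1 µM gave -0.0055 for ABCC1 and -0.084 for ABCC6. Leaving out 1 library gave -0.54 to 0.34 for ABCC6 in DMSO, -0.29 to 0.0081 for ABCC10 and -0.20 to 0.024 for ABCC4 in doxorubicin, and with 1 µM -0.082 to 0.15 for ABCG2, -0.11 to 0.39 for ABCC10, -0.019 to 0.19 for ABCC1 and -0.42 to 0.58 for ABCC6. It gave -0.23 to 0.034 for ABCC10 and -0.17 to 0.015 for ABCC3 with 170 nM, and -0.011 to 0.49 for ABCC10 and -0.24 to 0.015 for ABCC2 in the difference.

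Libraries that share a replicate number did not deviate together, with correlations of deviations from -0.0924 to 0.0575, so the numbers were not taken to pair them. With the replicate block 0 genes passed with 170 nM and ABCC6 in DMSO gave -0.057; every member's call was as without the block. Counts of 9 to 53 a library limit ABCC6, and 24 counts in all limit ABCB1. The difference of effects needs all 4 groups, so the fit of only the groups compared gives no value for it.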
